A study of Mus musculus with 11 samples.

Results

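The genes examined here were 10 genes of the endoplasmic reticulum (ER) stress and ATF4 response, followed through the first days after paracetamol (APAP) injury of the mouse liver. They were chosen by name (Ddit3, Atf4, Atf5, Asns, Trib3, Chac1, Herpud1, Hspa5, Xbp1 and Sdf2l1), as 10 of the 31053 genes counted, and all 10 had enough counts to be tested. The data were spatial transcriptomics (Visium) of 11 cryosections of mouse liver, in which poly(A) RNA is captured by barcoded spots laid out as a grid and counted as unique molecules (UMIs). The uninjured 0 h group had 3 sections (labelled 2, 3 and 4). Of the 8 injured sections, whose disease label reads POD, 2 were taken 24 h after injury, 2 after 36 h (lettered A and B in each case) and 4 after 48 h (lettered A to D). Per the study's methods the animals were adult mice, male unless stated otherwise, with C57BL/6JCrl as the wild-type strain obtained. Those injured with APAP were fasted before its intraperitoneal injection. Whether the uninjured animals were fasted is not given in the sources used here. The methods also give a single mouse per time point for the spatial data, so n counts sections, p-values measure the spread between sections, and mouse and time cannot be told apart.

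Unfolded protein in the ER is sensed by PERK, IRE1 and ATF6. PERK phosphorylates the translation factor eIF2, which slows protein synthesis while favouring translation of the transcription factor ATF4, and the eIF2 kinases for amino acid shortage, haem shortage and viral RNA lead to ATF4 too, a convergence called the integrated stress response. IRE1 splices Xbp1 mRNA, and XBP1 together with cleaved ATF6 raises chaperones and degradation factors of the ER. APAP is turned into a reactive metabolite mainly by hepatocytes around the central veins, where necrosis follows, while hepatocytes around the portal tracts are largely spared. Counts of 3′ ends measure the amount of each mRNA and carry no information on Xbp1 splicing, ATF4 translation or protein.

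Promoter windows are shown for 6 genes, namely Asns, Trib3, Chac1 and Ddit3 of the ATF4 arm and Herpud1 and Hspa5 of the ER chaperone arm. Each window runs from 250 bases before to 50 bases after a RefSeq start site (GRCm38.p6, the build of the files), is written 5′ to 3′ on the strand of the gene, and carries in capitals the matches to 3 motifs: the CARE element bound by ATF4 and its partners (TGATGNAAN), the ER stress element ERSE (CCAAT, any 9 bases, CCACG) and ERSE-II (ATTGG, any base, CCACG).
Asns, chr6:7693160-7693459, minus strand: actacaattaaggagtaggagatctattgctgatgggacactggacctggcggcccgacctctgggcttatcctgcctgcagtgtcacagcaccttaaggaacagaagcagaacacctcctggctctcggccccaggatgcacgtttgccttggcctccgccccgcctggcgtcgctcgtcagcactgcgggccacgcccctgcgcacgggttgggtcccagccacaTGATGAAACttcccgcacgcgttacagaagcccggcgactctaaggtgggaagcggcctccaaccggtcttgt
Trib3, chr2:152344011-152344310, minus strand: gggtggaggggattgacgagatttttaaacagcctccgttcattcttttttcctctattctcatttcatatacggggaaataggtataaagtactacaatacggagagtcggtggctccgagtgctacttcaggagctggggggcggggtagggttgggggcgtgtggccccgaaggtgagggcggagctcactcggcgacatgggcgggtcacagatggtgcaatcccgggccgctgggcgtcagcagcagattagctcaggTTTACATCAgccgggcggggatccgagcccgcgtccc
Chac1, chr2:119350992-119351291, plus strand: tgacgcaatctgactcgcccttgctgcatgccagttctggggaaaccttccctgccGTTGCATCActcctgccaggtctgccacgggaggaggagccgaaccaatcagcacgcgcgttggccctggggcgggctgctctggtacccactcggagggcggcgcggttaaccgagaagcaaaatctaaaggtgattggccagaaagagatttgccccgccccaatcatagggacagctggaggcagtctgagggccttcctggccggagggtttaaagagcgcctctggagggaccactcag
Herpud1, chr8:94386179-94386478, plus strand: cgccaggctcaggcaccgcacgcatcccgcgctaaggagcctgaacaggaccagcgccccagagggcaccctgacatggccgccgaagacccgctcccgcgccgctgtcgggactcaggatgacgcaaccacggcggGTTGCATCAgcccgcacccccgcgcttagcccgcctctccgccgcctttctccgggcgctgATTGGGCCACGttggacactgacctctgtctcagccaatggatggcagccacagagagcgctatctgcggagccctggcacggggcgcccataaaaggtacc
Hspa5, chr2:34771840-34772139, plus strand: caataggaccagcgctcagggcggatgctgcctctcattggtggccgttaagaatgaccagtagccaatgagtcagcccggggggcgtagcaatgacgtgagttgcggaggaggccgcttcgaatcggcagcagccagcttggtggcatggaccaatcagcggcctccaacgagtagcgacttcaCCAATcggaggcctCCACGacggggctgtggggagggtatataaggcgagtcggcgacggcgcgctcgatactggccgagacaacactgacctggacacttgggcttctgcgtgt
Ddit3, chr10:127290543-127290842, plus strand: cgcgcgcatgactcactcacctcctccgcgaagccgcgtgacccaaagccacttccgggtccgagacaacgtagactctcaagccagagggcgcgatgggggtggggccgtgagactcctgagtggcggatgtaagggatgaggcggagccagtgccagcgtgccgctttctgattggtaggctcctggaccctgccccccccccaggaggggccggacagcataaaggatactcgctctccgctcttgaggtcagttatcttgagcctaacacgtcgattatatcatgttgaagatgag
Both strands were searched in all 32851 windows of the table, and 3.95% of them held a CARE match, 0.119% an ERSE and 0.0365% an ERSE-II. A CARE match was present in Asns (first base at -23 from the start site), Trib3 (14), Chac1 (-194) and Herpud1 (-113), the matches in Trib3, Chac1 and Herpud1 being on the opposite strand. Herpud1 also held an ERSE-II at -52, and Hspa5 held an ERSE at -65. The windows of Ddit3, Atf4, Atf5, Xbp1 and Sdf2l1 held none of the 3 motifs, and no window of the 10 genes held TGACGTGG, an XBP1 and ATF6 motif present in 0.676% of windows. A match is a description of letters in this window, not evidence of a bound site. The whole genes of the others lie at chr15:80255184-80257541 (Atf4, plus strand), chr7:44812256-44816658 (Atf5, minus), chr11:5520659-5525893 (Xbp1, plus) and chr16:17130138-17132383 (Sdf2l1, minus). On the opposite strand Ddit3 overlaps Mars by 68 bases, Atf5 overlaps Nup62 by 571 bases and Il4i1 by 272, and Herpud1 overlaps Gm15890 by 535.

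The sections held 31292663 to 67045372 UMIs over 1490 to 3466 spots, and the median spot held 15168.5 to 29950 UMIs. Summed hepatocyte markers were 119000 to 125000 CPM (counts scaled to a library of 1e+06) in uninjured and 85300 to 114000 CPM in injured tissue, so each section was liver by its defining genes. Mononuclear phagocyte markers rose from 409-434 to 722-1330 CPM by 48 h, and central hepatocyte markers went from 38700-45100 CPM to 10700-18400 CPM with injury. Levels are given as CPM scaled by TMM, a factor that centres most genes between sections. Scaled by total counts instead, the median of all genes stood 0.37, 0.49 and 0.54 log2 units higher at 24 h, 36 h and 48 h than at 0 h. A change smaller than this depends on the scaling. Cases where a direction or a call did are given below, some of them only within a count of genes called. In sections, fewer cells of a type and less RNA per cell cannot be told apart. Spots beside the tissue carried RNA of these genes too, for example 135 CPM of Ddit3 against 229 CPM under the tissue in 24 h section A (both by total counts), so a UMI in a spot need not come from the cells above it.

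At 24 h, 7 of the 10 genes were higher than at 0 h and none was lower, against a background of 23.1% of 14821 genes called higher and 18.6% called lower (edgeR quasi-likelihood test, Benjamini-Hochberg adjusted p under 0.05). The steepest changes were in the ATF4 arm. Ddit3, which encodes the pro-apoptotic transcription factor CHOP, stood at 10.3, 14.5 and 9.74 CPM in the 0 h sections and at 227 and 116 CPM in the 24 h sections A and B. Both 24 h sections lay far above all 3 uninjured ones (log2 fold change 3.89 ± 0.62 SE, adjusted p = 0.00101). Asns, the asparagine synthetase gene, was close to undetected at 0 h, at 0.814, 0.865 and 0.706 CPM, and reached 8.47 and 10.5 CPM at 24 h. Its log2 fold change was 3.56 ± 0.46 (adjusted p = 0.000297). Trib3, a pseudokinase gene induced by ATF4 and CHOP, went from 7.42, 8.56 and 4.29 CPM to 31.5 and 25.5 CPM, with no overlap between the groups (2.07 ± 0.44, adjusted p = 0.00436). Chac1, whose product degrades glutathione, the tripeptide that also detoxifies the APAP metabolite, went from 3.48, 1.91 and 2.99 CPM to 7.55 and 12.1 CPM (1.81 ± 0.47, adjusted p = 0.0113). The Chac1 sections did not overlap either, and without section B of 24 h its adjusted p was 0.091.

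Hspa5, Herpud1 and Sdf2l1 of the ER arm were called higher too, with smaller fold changes. Hspa5, the ER chaperone BiP that holds the 3 stress sensors inactive, had 717, 559 and 714 CPM at 0 h and 2420 and 1590 CPM at 24 h. Its log2 fold change was 1.60 ± 0.37 (adjusted p = 0.00643), and without the higher section A the adjusted p was 0.0599. Herpud1, an adaptor of ER-associated degradation, had the closest pair of 24 h values. It stood at 776 and 784 CPM against 311, 392 and 403 CPM at 0 h (1.08 ± 0.28, adjusted p = 0.00995). Sdf2l1, an ER protein of chaperone complexes, varied widely among uninjured sections, at 48.9, 18.9 and 44.2 CPM, and measured 107 and 79.1 CPM at 24 h (1.32 ± 0.38, adjusted p = 0.0175). That call was lost without section A of 24 h (adjusted p = 0.115) and in a fit of the 0 h and 24 h sections alone (adjusted p = 0.0607).

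The mRNAs of the transcription factors themselves moved little at 24 h. Atf4 measured 189, 167 and 159 CPM at 0 h and 228 and 196 CPM at 24 h, so that the groups did not overlap but the change was not called (0.30 ± 0.15, adjusted p = 0.128). Atf5, a related factor active in hepatocytes and in the mitochondrial stress response, had 227, 216 and 242 CPM against 272 and 226 CPM (0.13 ± 0.20, adjusted p = 0.635). Xbp1 had 179, 178 and 223 CPM against 262 and 205 CPM (0.27 ± 0.21, adjusted p = 0.321). Scaled by total counts, Atf4 (0.63, adjusted p = 0.00638) and Xbp1 (0.60, adjusted p = 0.0352) were also called higher, which made 9 of 10, and the background was then 41.1% higher and 10.0% lower. Compared within a section, where scaling has no part, there were 5.44 to 8.68 Ddit3 UMIs per 100 Atf4 UMIs at 0 h and 59.2 to 99.5 at 24 h. Hspa5 gave 315 to 400 UMIs per 100 Xbp1 UMIs at 0 h and 777 to 924 at 24 h.

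**Figure D1:**
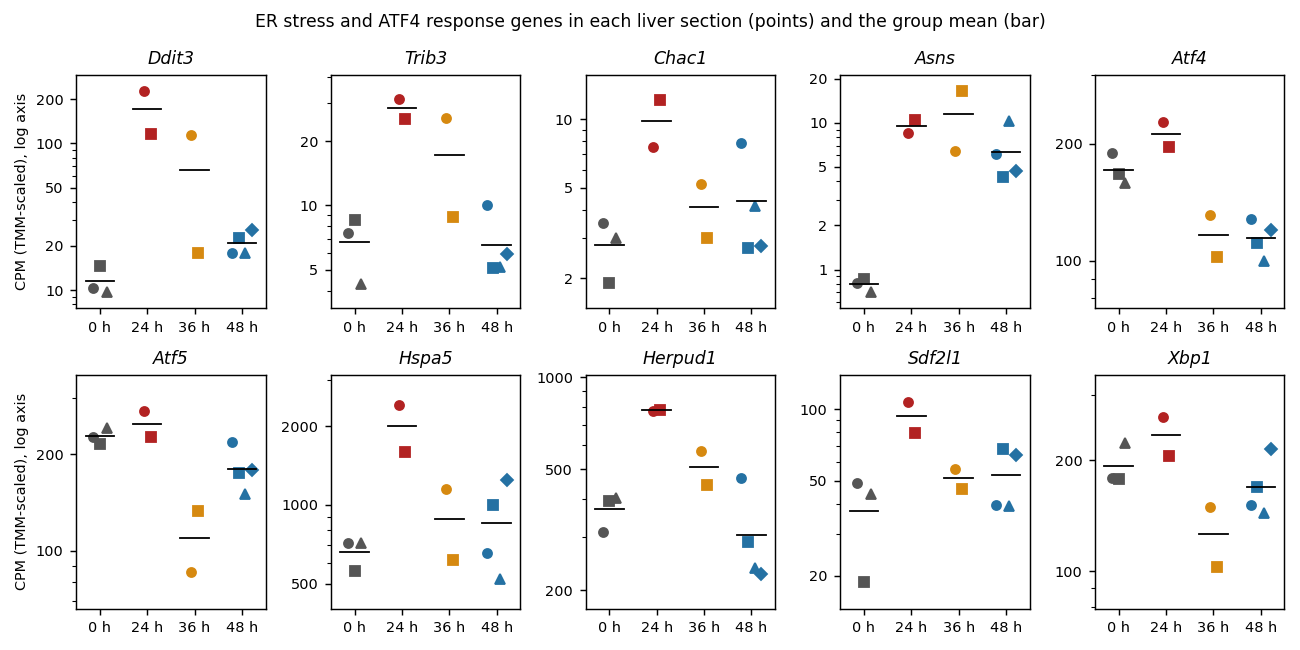
Level of each of the 10 genes in each section (TMM-scaled CPM on a log axis) at 0, 24, 36 and 48 h. Points are sections (circle, square and triangle for 0 h sections 2, 3 and 4, and circle, square, triangle and diamond for injured sections A, B, C and D) and bars are group means. The 24 h points of Ddit3, Trib3, Chac1, Asns, Hspa5, Herpud1 and Sdf2l1, and of Atf4 without a call, all lie above the 0 h points. The share of all genes without such overlap was not counted. The 36 h sections A and B lie far apart for Ddit3 (114 and 17.9 CPM).

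At 36 h, 3 of the 10 genes were higher and 2 lower than at 0 h, against 16.8% and 12.4% of all genes. By total counts they were 4 and 1, with the background at 47.7% and 2.98%, the added gene being Herpud1 (0.90, adjusted p = 0.0204). The 2 sections of this time differed strongly. Ddit3 stood at 114 CPM in section A, near the 24 h level, and at 17.9 CPM in section B, near the 48 h level. Trib3 split the same way at 25.6 and 8.79 CPM, and Hspa5 at 1150 and 617 CPM, of which the latter lay within the 0 h range. Asns split the other way, at 6.46 and 16.4 CPM. Asns (3.83 ± 0.46, adjusted p = 0.000667), Ddit3 (2.52 ± 0.60, adjusted p = 0.013) and Trib3 (1.34 ± 0.44, adjusted p = 0.0455) were called higher. The calls of Ddit3 and Trib3 rest on section A, since without it the log2 fold changes were 0.63 (adjusted p = 0.22) and 0.37 (adjusted p = 0.559). Trib3 also lost its call on leaving out any one of 8 other sections, with no filter on low counts (adjusted p = 0.102) and in the fit of these 2 groups alone (adjusted p = 0.0884).

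Atf4 and Atf5 were the genes called lower at 36 h. Atf5 fell to 85.8 and 133 CPM, both below every 0 h and 24 h section (-1.06 ± 0.20, adjusted p = 0.00415), and it was called lower by total counts too (-0.63, adjusted p = 0.0178). Atf4 was at 131 and 102 CPM (-0.56 ± 0.15, adjusted p = 0.0199), a call that was absent by total counts (-0.12, adjusted p = 0.547), without section B of 36 h (adjusted p = 0.13) and without section 2 of 0 h (adjusted p = 0.0644). Herpud1 (573 and 443 CPM), Chac1 (5.19 and 3 CPM), Sdf2l1 (56.3 and 46.1 CPM) and Xbp1 (149 and 103 CPM) were not called, with adjusted p-values of 0.229, 0.412, 0.386 and 0.053.

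By 48 h only Asns was called higher and only Atf4 lower, against 23.3% and 20.9% of all genes. Asns measured 6.11, 4.27, 10.3 and 4.68 CPM in sections A to D, each above all 0 h sections (2.98 ± 0.42, adjusted p = 0.000401). Atf4 measured 128, 111, 99.7 and 120 CPM, each below all 0 h sections (-0.58 ± 0.12, adjusted p = 0.00351), and was at -0.06 by total counts (adjusted p = 0.718). Ddit3 was at 17.9, 22.5, 17.9 and 25.5 CPM, still above the uninjured range but not called (0.86 ± 0.51, adjusted p = 0.2). Hspa5 ranged from 521 to 1250 CPM and Sdf2l1 from 39.2 to 67.9 CPM, both overlapping 0 h. Herpud1 was at 468, 288, 236 and 226 CPM, with 3 of 4 sections below the lowest 0 h section (-0.28 ± 0.23, adjusted p = 0.362). By total counts 5 genes were called higher and none lower, with the background at 60.2% and 4.04%. These were Asns, Ddit3 (1.38, adjusted p = 0.045), Chac1 (1.19, adjusted p = 0.0268), Hspa5 (0.89, adjusted p = 0.0317) and Sdf2l1 (1.03, adjusted p = 0.0171), while Atf5, Trib3, Herpud1 and Xbp1 turned from below to above 0 without being called.

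**Figure D2:**
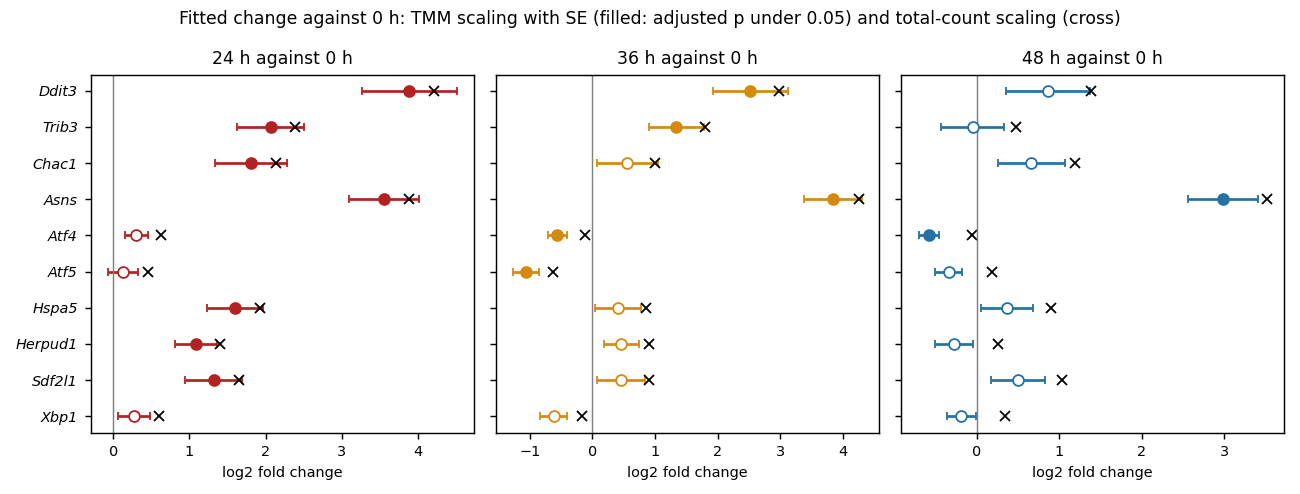
Fitted log2 fold change of each gene against 0 h at 24, 36 and 48 h. Circles with bars are estimates ± SE under TMM scaling (filled where the adjusted p was under 0.05) and crosses are the estimates under total-count scaling; Asns stays above 2.9 at all 3 times, Ddit3 goes from 3.89 to 2.52 and 0.86, and Atf4 crosses from 0.30 to -0.56 and -0.58.

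Between successive times, Atf4 (-0.86 ± 0.16, adjusted p = 0.0106), Atf5 (-1.19 ± 0.22, adjusted p = 0.00892) and Xbp1 (-0.89 ± 0.23, adjusted p = 0.0302) were lower at 36 h than at 24 h and no member was higher, against 8.58% and 7.04% of all genes. These 3 calls were absent when the 24 h and 36 h sections were fitted alone (adjusted p = 0.169, 0.149 and 0.191) or without section A of 24 h (0.0676, 0.0588 and 0.162). By total counts Xbp1 was not called (adjusted p = 0.0528), with the background at 4.53% lower and 9.66% higher. Ddit3 (-1.37 ± 0.66, adjusted p = 0.173), Chac1 (-1.26 ± 0.53, adjusted p = 0.125) and Hspa5 (-1.19 ± 0.42, adjusted p = 0.0778) had estimates at least as large as that of Atf5, with wider errors. None of these was called. From 36 h to 48 h no member was called in edgeR, against 1.62% of genes higher and 1.43% lower. By total counts Atf5 was called higher (0.82, adjusted p = 0.0406; background 2.58% and 0.897%). At an unadjusted p under 0.05 there were 4 (Ddit3, Trib3 and Herpud1 lower and Atf5 higher), and DESeq2 called Atf5 higher (0.74, adjusted p = 0.00437) and Trib3 lower (-1.38, adjusted p = 0.0155). Asns therefore followed another course from Ddit3, with 3.74 to 9.04 Asns UMIs per 100 Ddit3 UMIs at 24 h and 18.4 to 57.6 at 48 h, while in the 36 h sections A and B the ratio was 5.64 and 91.7.

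The same courses were seen in single spots. With every spot thinned to 5000 UMIs, Ddit3 had a UMI in 2.71% to 4.98% of spots at 0 h, in 63.0% and 40.5% at 24 h, in 36.1% and 8.30% at 36 h and in 9.21% to 11.7% at 48 h. The largest number of Ddit3 UMIs in any spot, before thinning, was 49 in section A of 24 h, against 3 to 5 in the uninjured sections. Asns had a UMI in 0.145% to 0.339% of spots at 0 h and in 4.09% and 5.57% at 24 h, so most spots held none at this thinned depth. Trib3 went from 1.98%-3.02% to 11.1% and 15.2% of spots. Herpud1 was found in 67.5% to 75.8% of uninjured spots and in 97.0% and 97.7% at 24 h, and Hspa5 in 89.4% to 94.3% and then in every spot to 3 digits (100%). Neighbouring spots resembled each other weakly for Ddit3 (Moran's I of 0.1 and 0.0724 at 24 h, 0.141 in 36 h section A, and between -0.0134 and 0.0246 in the 0 h, 48 h and 36 h B sections). For Hspa5 it was highest in 36 h section A (0.142) and 24 h section B (0.118).

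Spots were ordered by a portal score, the mean log level of 12 periportal genes in spots thinned to 5000 UMIs. In each section the 1/3 of spots with the highest score (portal-rich) and the 1/3 with the lowest (portal-poor) were summed. They were compared with the section as a block. Central markers were at 28400 to 33100 CPM in portal-rich and 52900 to 59200 CPM in portal-poor spots at 0 h. These markers were at 10900 to 13000 and 9640 to 14200 CPM at 24 h and 12300 to 16700 and 9780 to 16200 CPM at 36 h. At 48 h they were at 15300 to 20900 and 11200 to 15000 CPM. After injury a gradient is therefore one along this score, not a measured position between portal tract and central vein. In uninjured liver the gradients were shallow. Herpud1 (log2 difference 0.23 ± 0.06, adjusted p = 0.0189) and Xbp1 (0.23 ± 0.06, adjusted p = 0.0186) were higher in portal-rich spots and no member was lower, against 5.74% and 5.94% of 13983 genes. Leaving out any of the 3 uninjured sections lost both calls (adjusted p between 0.0866 and 0.22). By total counts 1 member was higher and 1 lower, Xbp1 losing its call (0.18, adjusted p = 0.0701) and Chac1 gaining one (adjusted p = 0.0371), with the background at 4.66% and 8.18%. Chac1 had the only steep estimate, in the other direction, at 3.95, 2.20 and 3.57 CPM in portal-poor and 2.68, 1.51 and 2.12 CPM in portal-rich spots (-0.61 ± 0.21, adjusted p = 0.0648).

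At 24 h Trib3, Asns, Chac1 and Ddit3 of the ATF4 arm lay towards portal-poor spots, and Herpud1, Sdf2l1, Xbp1 and Hspa5 towards portal-rich spots. The arms did not split cleanly, since Atf5 of the ATF4 arm was portal-rich. Atf4 was level (-0.03 ± 0.07, adjusted p = 0.781), though called lower in portal-rich spots by total counts (-0.34, adjusted p = 0.000384). Of the 10 genes, 5 were higher and 3 lower in portal-rich spots, against 17.3% and 15.4% of genes. Trib3 was steepest, at 43.3 and 34.5 CPM in the portal-poor spots of sections A and B and 19.5 and 14.4 CPM in the portal-rich spots (-1.20 ± 0.13, adjusted p = 4.64e-07). Asns (-0.66 ± 0.20, adjusted p = 0.0169) and Chac1 (-0.47 ± 0.17, adjusted p = 0.0355) lay the same way, though without section A their adjusted p-values were 0.114 and 0.391 and without section B 0.166 and 0.0742. Ddit3 did too, at 296 and 153 CPM in portal-poor and 160 and 80.4 CPM in portal-rich spots, but missed the threshold (-0.90 ± 0.31, adjusted p = 0.0626; -1.21, adjusted p = 0.0148 by total counts). Herpud1 ran against these, at 533 and 566 CPM in portal-poor and 992 and 1000 CPM in portal-rich spots (0.86 ± 0.08, adjusted p = 2.17e-08), and so did Atf5, at 194 and 162 against 331 and 289 CPM (0.80 ± 0.08, adjusted p = 7.15e-08). Sdf2l1 (0.57 ± 0.12, adjusted p = 0.00126), Xbp1 (0.41 ± 0.08, adjusted p = 0.00022) and Hspa5 (0.31 ± 0.11, adjusted p = 0.0326, or 0.304 without section A and 0.119 without section B) were higher in portal-rich spots as well, though by total counts these 3 were no longer called (0.26, 0.10 and 0.00) and the split was 2 higher and 5 lower, with the background at 5.7% and 39.4%. Ratios within the same spots are free of scaling. Per 100 Herpud1 UMIs the portal-poor spots held 3.36 and 3.44 times as many Ddit3 UMIs and 4.13 and 4.23 times as many Trib3 UMIs as the portal-rich spots, against 0.939 to 1.3 and 0.967 to 1.15 times at 0 h. The range for Ddit3 was 2.01 to 7.0 at 36 h and 2.7 to 4.03 at 48 h, and for Trib3 it was 2.43 to 3.44 and 1.43 to 2.29. Portal-poor spots at 24 h also held less of the hepatocyte markers (70200 to 79800 CPM against 118000 to 145000), more of the phagocyte markers (666 to 728 against 396 to 529 CPM) and more of the neutrophil markers (47.8 to 220 against 22.8 to 62.2 CPM), and the part of these cells in the gradients was not tested.

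**Figure D3:**
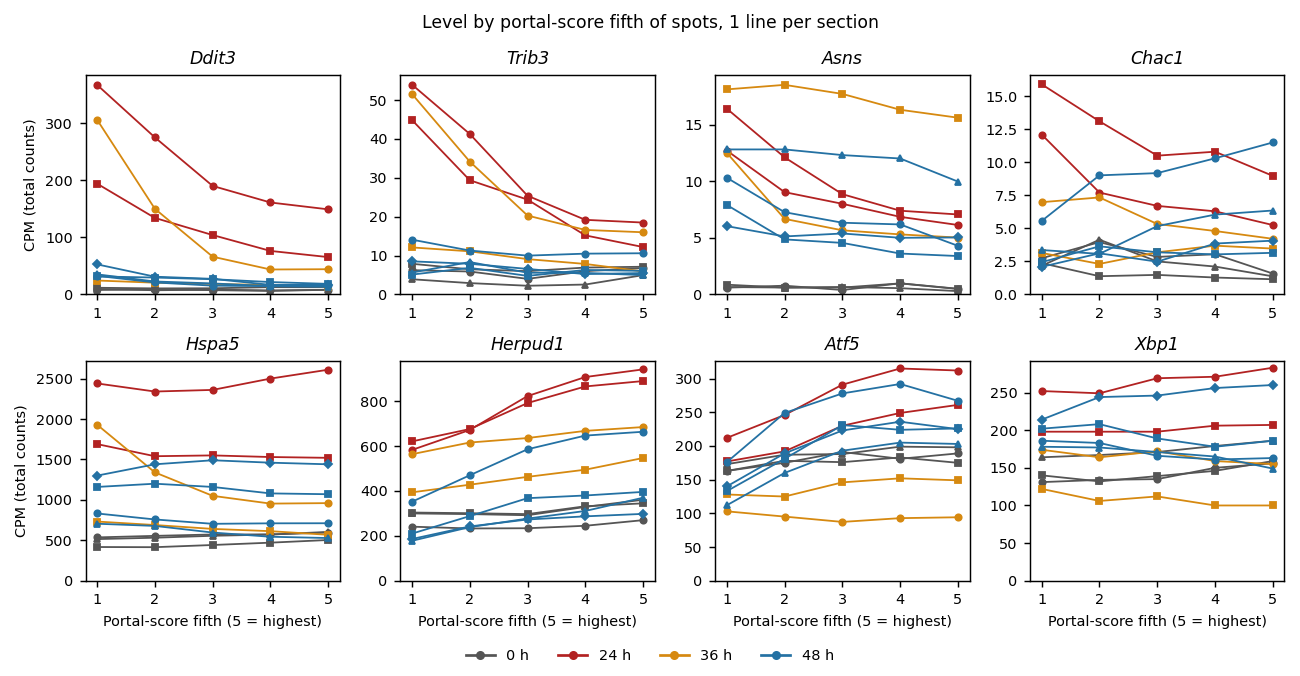
Level of 8 genes (CPM by total counts) in spots ranked into 5 classes by portal score, from 1 (lowest) to 5 (highest), with 1 line per section coloured by time and the section symbols of the plot of levels by section. At 24 h (red) Ddit3, Trib3, Asns and Chac1 descend and Herpud1 and Atf5 ascend towards portal-rich spots, and 36 h section A (orange circles) follows the 24 h sections for Ddit3 and Trib3.

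The gradients of Ddit3 and Trib3 were still present at 36 h, mainly in section A. Ddit3 stood at 209 and 42.8 CPM in the portal-poor and portal-rich spots of section A and at 19.9 and 16.0 CPM in those of section B (-1.60 ± 0.39, adjusted p = 0.0173). Trib3 stood at 37.9 and 15.8 CPM in A and at 10.6 and 7.07 CPM in B (-1.03 ± 0.16, adjusted p = 3.41e-05). Without section A the estimates were -0.29 (adjusted p = 0.425) and -0.56 (adjusted p = 0.117). Hspa5 was also portal-poor in section A (1420 against 951 CPM) and level in section B (614 against 622 CPM), and in section A the spots with more Ddit3 had more Hspa5 (Pearson r = 0.359 over spots of that section, a description since spots share a library). Herpud1 (0.61 ± 0.08) and Atf5 (0.38 ± 0.08) were higher in portal-rich spots, so that 2 genes were higher and 2 lower, against 16.3% and 15.7% of genes. Atf5 was not called without section B (adjusted p = 0.254) or by total counts (0.08, adjusted p = 0.402), when 1 member was higher and 6 were lower with the background at 5.94% and 40.1%. The 6 were Ddit3, Trib3, Asns (-0.49), Atf4 (-0.36), Hspa5 (-0.58) and Sdf2l1 (-0.54).

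At 48 h, 6 members were higher in portal-rich spots and none was lower, against 31.2% and 35.7% of genes. Herpud1 had the largest difference among them, at 297, 176, 147 and 157 CPM in the portal-poor and 673, 406, 359 and 297 CPM in the portal-rich spots of sections A to D (1.15 ± 0.06, adjusted p = 2.81e-14). Chac1 had turned around, at 5.15, 1.99, 2.42 and 2.04 CPM in portal-poor and 11, 3.09, 6.65 and 3.57 CPM in portal-rich spots (1.07 ± 0.135). Atf5 (1.01 ± 0.06), Xbp1 (0.34 ± 0.05), Hspa5 (0.28 ± 0.08) and Atf4 (0.24 ± 0.05) were also higher, but by total counts Atf4 (-0.19), Hspa5 (-0.15) and Xbp1 (-0.09) turned the other way. Trib3, not called under TMM (0.12, adjusted p = 0.384), turned as well and was called lower by total counts (-0.30, adjusted p = 0.0181). In all, 3 members were then higher and 5 lower (background 12% and 67.7%). Those lower were Ddit3, Trib3, Asns (-0.54), Atf4 and Sdf2l1 (-0.49). Ddit3 kept its direction in 4 of 4 sections, with portal-rich to portal-poor ratios of 0.503 to 0.854, without a call (adjusted p = 0.0736), but was called lower in portal-rich spots by total counts (-1.05, adjusted p = 0.00668). Phagocyte markers were at 1190 to 2380 CPM in portal-poor and 367 to 680 CPM in portal-rich spots of this time.

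The change of the gradient along the portal score was tested against 0 h. At 24 h it had moved towards portal-rich spots for Herpud1 (0.63 ± 0.10, adjusted p = 0.000114) and Atf5 (0.63 ± 0.10) and towards portal-poor spots for Trib3 (-1.35 ± 0.20), against 12.7% and 9.08% of genes. All 3 shifts were called by total counts as well (0.36, 0.36 and -1.61), when Atf4 was added on the portal-poor side (-0.46) and the background was 4.11% and 23.2%. At 36 h it had moved towards portal-rich spots for Herpud1 (0.38 ± 0.10) and towards portal-poor spots for Trib3 (-1.17 ± 0.22) and Hspa5 (-0.51 ± 0.14), against 12.7% and 9.76%. The Trib3 and Hspa5 shifts of 36 h were not called without section A (adjusted p = 0.0882 and 0.372), and that of Herpud1 was not called without section B (adjusted p = 0.145) or by total counts (0.12, adjusted p = 0.354), when none was higher and 6 were lower with the background at 5.73% and 24.7%. At 48 h Chac1 had the largest shift (1.68 ± 0.25), followed by Herpud1 (0.92 ± 0.085) and Atf5 (0.84 ± 0.09), all towards portal-rich spots and all called under both scalings, against 24.6% and 22.5%. By total counts 4 members were also called on the portal-poor side, namely Atf4 (-0.31), Hspa5 (-0.34), Sdf2l1 (-0.60) and Xbp1 (-0.28), with the background at 10.7% and 49.3%. These comparisons share the uninjured sections.

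Spots poor in hepatocyte RNA were taken as a measure of lesions. They were spots whose hepatocyte marker score was below the lowest 1% of uninjured spots, and sections with at least 20 such spots were used, which were section A at 24 h (46 spots) and all 4 sections at 48 h (45 to 250 spots). No section at 36 h reached that number. In the 24 h section Ddit3 climbed from 262 CPM in far spots (3 or more steps away) to 351 CPM in spots adjoining a hepatocyte-low spot and 497 CPM in the hepatocyte-low spots, and Trib3 went from 36.3 to 48.5 and 84.7 CPM. Herpud1 descended over the same steps from 976 to 728 and 477 CPM, Atf5 from 341 to 257 and 171 CPM, Sdf2l1 from 135 to 107 and 76.9 CPM and Xbp1 from 325 to 289 and 222 CPM. Over the same steps neutrophil markers went from 46.4 to 52.2 and 130 CPM, phagocyte markers from 730 to 762 and 987 CPM and hepatocyte markers from 122000 to 87000 and 56600 CPM. Their part was not tested. A single section has no spread of its own, so the calls at 24 h borrow that of the 48 h sections and are no replicated test of a difference at 24 h. On that basis hepatocyte-low against far spots gave 2 members higher and 4 lower (1.64% and 5.53% of 14312 genes), namely Ddit3 (0.92 ± 0.12) and Trib3 (1.22 ± 0.225) above, and Herpud1 (-1.03 ± 0.12), Atf5 (-0.996 ± 0.15), Sdf2l1 (-0.81 ± 0.20) and Xbp1 (-0.55 ± 0.155) below. By total counts Sdf2l1 and Xbp1 were not called and Atf4 was called higher (0.62, adjusted p = 0.00199), so that 3 were higher and 2 lower with the background at 7.39% and 1.86%. In adjoining spots 1 member was higher (Ddit3, 0.42 ± 0.105) and 1 lower (Herpud1, -0.42 ± 0.10), against 0.14% and 0.608% of genes. Both calls were lost without section B of 48 h, which bears on them through the shared spread (adjusted p = 0.115 and 0.133), and that of Herpud1 was lost by total counts (adjusted p = 0.227, background 0.79% and 0.126%).

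A wider cut at the lowest 5% of uninjured spots admitted all 8 injured sections. At 24 h Ddit3 was then at 231 and 119 CPM in far spots and 419 and 191 CPM in hepatocyte-low spots of sections A and B (0.79 ± 0.09, adjusted p = 3.38e-08), and Herpud1 was at 967 and 968 against 579 and 560 CPM (-0.76 ± 0.09, adjusted p = 2.41e-08). At 36 h Ddit3 was at 123 against 251 CPM in section A and at 21.8 against 22.6 CPM in section B (0.87 ± 0.13, adjusted p = 2.65e-06), so the estimate rests on section A. Herpud1 was lower in hepatocyte-low spots of both 36 h sections, at 497 against 692 CPM and 290 against 550 CPM (-0.68 ± 0.10, adjusted p = 1.07e-06). Hspa5 was at 1330 against 1710 CPM in far and hepatocyte-low spots of section A and at 739 against 624 CPM in those of section B. Also called in hepatocyte-low spots at 24 h and 36 h were Trib3 above (0.73 and 0.63) and Atf5 (-0.79 and -0.36) and Xbp1 (-0.48 and -0.34) below. Sdf2l1 was called lower at 24 h alone (-0.58). The 36 h sections had 10.2 and 48 CPM of Trib3 in hepatocyte-low and 10.9 and 27.3 CPM in far spots. Shares of all genes and total-count values are not given for this cut.

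At 48 h, 8 members were lower and 1 was higher in hepatocyte-low than in far spots, against 30.6% and 31.3% of genes. Ddit3 was the one that was higher, at 26.7, 30.1, 27.4 and 39.9 CPM in hepatocyte-low and 21.2, 26.8, 21.2 and 27.8 CPM in far spots (0.37 ± 0.09), though not with the score taken from 2000 UMIs per spot (adjusted p = 0.0702). Herpud1 (222, 121, 117 and 114 against 681, 388, 371 and 317 CPM) and Atf5 (106, 90.9, 72.3 and 82.8 against 311, 235, 235 and 251 CPM) fell furthest, by 1.61 and 1.58 on the log2 scale. Trib3 had changed sides since 24 h, at 3.83 to 7.97 CPM in hepatocyte-low and 6.51 to 13.5 CPM in far spots (-0.69 ± 0.17). The difference between the times was not tested, and the 48 h call was lost by total counts (-0.14, adjusted p = 0.494) and at the wider cut (adjusted p = 0.058). The others were Chac1 (-1.165), Xbp1 (-0.69), Asns (-0.56), Hspa5 (-0.49) and Atf4 (-0.22). Without section C the call of Asns was lost (adjusted p = 0.357). Of these, Asns (0.02), Hspa5 (0.07) and Atf4 (0.35, adjusted p = 5.97e-06) lay on the other side by total counts, Xbp1 was not called (-0.13), and 3 members were higher and 3 lower with the background at 62.4% and 12.9%. The 3 higher were Ddit3, Atf4 and Sdf2l1, the last not called under TMM (0.50 by total counts, adjusted p = 1.02e-07). In adjoining spots Ddit3 was higher (0.40 ± 0.07) and Herpud1 (-0.54), Chac1 (-0.53), Atf5 (-0.48) and Xbp1 (-0.14, adjusted p = 0.0499) were lower, against 18% and 19.3% of genes. The Xbp1 call was lost without section A, B or D (highest adjusted p = 0.506), and by total counts 4 members were higher and 2 lower with the background at 48.8% and 7.27%. Those higher were Ddit3, Asns (0.35), Sdf2l1 (0.27) and Trib3 (0.27), and those lower were Herpud1 and Atf5. Hepatocyte-low spots at 48 h held 39900 to 50200 CPM of hepatocyte markers against 127000 to 142000 in far spots, with phagocyte markers at 2600 to 5280 against 679 to 1200 CPM and mesenchyme markers at 2200 to 5130 against 663 to 1370 CPM, and their part in these differences was not tested.

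**Figure D4:**
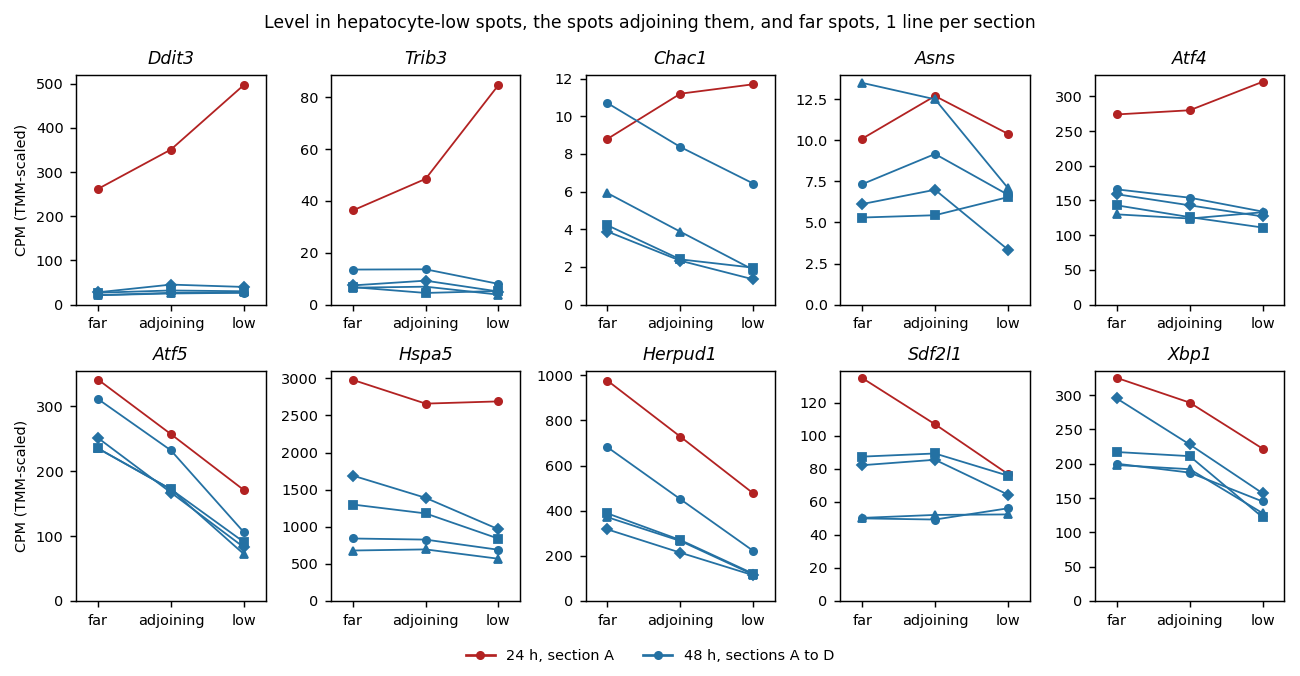
Level of the 10 genes (TMM-scaled CPM) in far spots, in spots adjoining a hepatocyte-low spot and in hepatocyte-low spots, with 1 line per section (red, 24 h section A; blue, 48 h sections A to D with the section symbols used for the levels by section). Ddit3 and Trib3 climb towards the hepatocyte-low spots at 24 h (262 to 497 and 36.3 to 84.7 CPM), whereas Herpud1 and Atf5 descend in all 5 sections.

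The rest of the pathway was followed through 6 lists that hold none of the 10 genes. Among 31 targets of ATF4 and the integrated stress response, 18 were higher and 3 lower at 24 h than at 0 h (median log2 fold change 0.64, against 0.05 over all genes), 14 and 5 at 36 h and 14 and 4 by 48 h. Among all genes the shares called higher and lower were 23.1% and 18.6% at 24 h, 16.8% and 12.4% at 36 h and 23.3% and 20.9% at 48 h. By total counts they were 41.1% and 10.0%, 47.7% and 2.98%, and 60.2% and 4.04%. Psat1, an enzyme of serine synthesis, rose from a mean of 0.757 CPM at 0 h to 26.7 CPM at 24 h and was at 11.6 and 9.21 CPM at 36 h and 48 h (5.13 ± 0.20 at 24 h, adjusted p = 6.87e-07). Nupr1, a stress-induced chromatin protein, went from 4.26 to 79.7 and 107 CPM and back to 20.4 CPM. The stress factor Atf3 went from 6 to 35.4 CPM at 24 h. The secreted stress cytokine Gdf15 was at 6.29 CPM at 0 h, 27.9 CPM at 24 h and 22.8 CPM at 48 h. Members of the same list went down at 24 h, chiefly Cth, which makes cysteine from cystathionine (330 to 51.6 CPM, -2.68 ± 0.26, adjusted p = 5.49e-05), and the mitochondrial serine hydroxymethyltransferase Shmt2 (176 to 112 CPM). By total counts 21 of the 31 were higher and 2 lower at 24 h, 20 and 0 at 36 h and 22 and 1 at 48 h.

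Of 20 ER chaperones and folding enzymes, 11 were higher and 1 lower at 24 h (median 0.64), none was called at 36 h and 3 were lower at 48 h. Creld2, a disulfide isomerase-like ER protein, went from 94.8 to 774 CPM at 24 h and was at 149 CPM at 36 h (3.03 ± 0.79 at 24 h, adjusted p = 0.0125), and the secreted ER stress factor Manf went from 333 to 1030 and then 315 CPM. Hyou1, a large HSP70-family chaperone, fell from 28.9 to 15.5 CPM by 48 h (-0.89 ± 0.26, adjusted p = 0.0168). By total counts 16 of the 20 were higher at 24 h, 10 at 36 h and 11 at 48 h, and none was lower, so that the counts at 36 h and 48 h were near the shares of all genes. Among 12 tested genes of ER-associated degradation, 5 were higher and 1 lower at 24 h, including the ubiquitin ligase Syvn1 (65.5 to 260 CPM) and Derl3 (3.98 to 58.7 CPM). Of 14 translocon and signal peptidase genes 10 were higher and none lower at 24 h, among them Sec61g (652 to 1320 CPM), and none was called at 36 h or 48 h. By total counts 14, 9 and 12 of these 14 were higher at the 3 times and none was lower.

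Of 13 sensors and eIF2 regulators, 3 were higher and 4 lower at 24 h, against 23.1% and 18.6% of all genes. By total counts they were 4 (30.8%) and 1 (7.69%), against 41.1% and 10.0% of all genes. Creb3l2 rose (11 to 25.2 CPM) and the haem-regulated eIF2 kinase Eif2ak1 fell (24.5 to 15.4 CPM). Mitochondrial chaperones and proteases, include targets that ATF5 is known for. Of 7, none was higher and 1 was lower at 24 h, 4 were lower at 36 h and 6 at 48 h, for example the chaperonin Hspd1 (317, 345, 211 and 223 CPM at the 4 times) and the protease subunit Clpp (95.9, 102, 70.1 and 62.3 CPM). Of all genes, 18.6%, 12.4% and 20.9% were lower at 24 h, 36 h and 48 h. By total counts 4, 1 and 0 of these 7 were higher and none lower at the 3 times. The shares of all genes were then 41.1%, 47.7% and 60.2% higher and 10.0%, 2.98% and 4.04% lower.

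**Figure D5:**
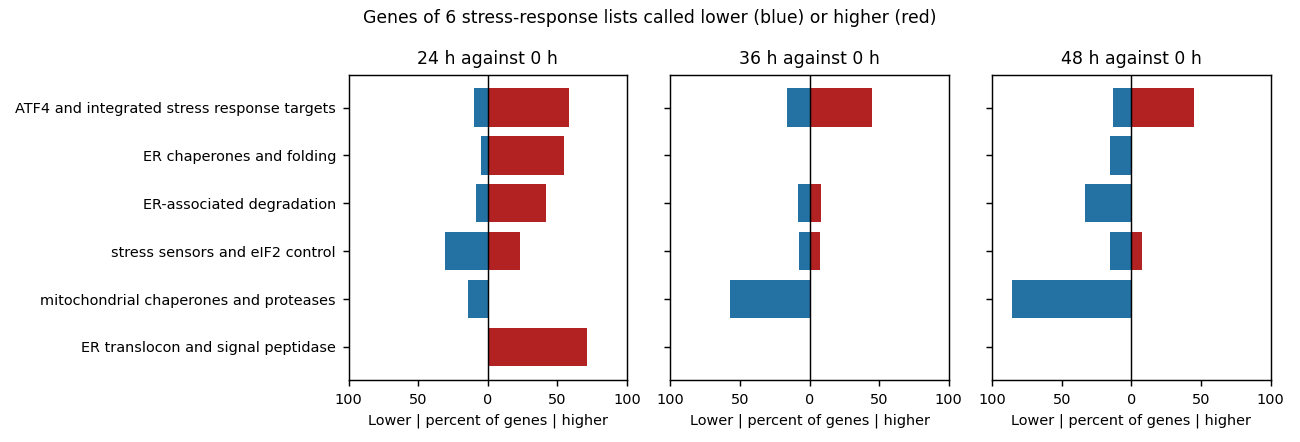
Percent of the tested genes of 6 stress-response lists that were called lower (blue, to the left) or higher (red, to the right) than at 0 h, at 24, 36 and 48 h. The ATF4 target list keeps genes called higher at all 3 times (18, 14 and 14 of 31), whereas the ER chaperone and translocon lists have 11 of 20 and 10 of 14 at 24 h and none later under the TMM scaling plotted; by total counts 10 and 11 chaperones and 9 and 12 translocon genes were higher at 36 h and 48 h.

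By portal score at 24 h, 17 of 20 ER chaperones were higher and 1 lower in portal-rich spots (median log2 difference 0.54). Of 12 degradation genes 8 were higher there, and of 14 translocon genes 11, with none lower. Of the 31 ATF4 targets 7 were higher and 12 lower (median -0.15). Among all genes the shares were 17.3% and 15.4%. By total counts the portal-rich calls at 24 h were 10, 6 and 7 higher with 1, 2 and 1 lower, and 2 of the 31 targets were higher and 17 lower, against 5.7% and 39.4% of all genes. At 36 h, 4 of the 20 ER chaperones were higher and 3 lower, near the 16.3% and 15.7% of all genes (0 and 11 by total counts, with all genes at 5.94% and 40.1%). At 48 h, 15 were higher and none lower, against 31.2% and 35.7% of all genes (2 and 11 by total counts, with all genes at 12% and 67.7%). Of the 31 ATF4 targets 12 were higher and 14 lower at 48 h, not far from those shares (4 and 22 by total counts). In hepatocyte-low spots of 48 h, 17 of 20 ER chaperones and 11 of 12 degradation genes were lower and none was higher, while 15 of 30 ATF4 targets were higher and 12 lower, against 31.3% and 30.6% of all genes. By total counts the ER chaperones were 8 higher and 4 lower there, the degradation genes 3 and 6 and the ATF4 targets 21 and 4, with all genes at 62.4% higher and 12.9% lower.

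Over the 11 sections, the genes whose levels followed those of the members most closely were ranked among 7085 genes with a mean of at least 10 CPM. The sections share 4 times and 1 mouse at each, so these are descriptions. For Hspa5 they were Creld2 (Pearson r = 0.989), Syvn1 (0.981) and Dnajc3 (0.975), all ER proteins, and for Sdf2l1 Dnajb11 (0.931) and Pdia6 (0.928). The mean profile of Hspa5, Herpud1, Xbp1 and Sdf2l1 was matched best by Dnajc3 (0.980) and Slc35b1 (0.962). That of Ddit3, Atf4, Atf5, Asns, Trib3 and Chac1 was matched best by Golga2 (0.963), Nop9 (0.960) and Wdr3 (0.956), none of which is on the lists above. Genes close to Asns included Bak1 (0.966) and Marco (0.965), the latter a macrophage receptor that went from 16.1 to 263, 172 and 121 CPM. Ddit3 was nearest to Zfp865 (0.977), Nktr (0.975) and Mllt1 (0.974), and Trib3 to Pnpla6 (0.983). Among the 10 genes the closest pairs were Ddit3 with Trib3 (0.910), Trib3 with Herpud1 (0.877) and Hspa5 with Sdf2l1 (0.866), while Asns with Atf4 was at -0.359.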

How the data were processed

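Spatial transcriptomics (Visium) libraries of 11 liver sections were used. The authors deposited raw UMI counts per gene and spot, made per the labels' processing notes with Space Ranger 1.0.0 on mm10; Seurat 4.1.1 is also named there. No normalization had been applied to the deposited counts. Tissue spots were kept if they had 800 or more genes and no more than 20% of UMIs from mitochondrial genes, then summed per section, or per class of spots. Sums were tested with edgeR 4.0.16 (R 4.3.3, quasi-likelihood test, TMM scaling, its expression filter), all sections sharing 1 estimate of spread (14821 genes), with Benjamini-Hochberg adjustment over all genes. Portal classes (13983 genes) and lesion classes (14312 genes) were fitted with the section as a block, after thinning to 5000 UMIs for the scores, which left out 1 to 260 spots per section. Alternatives were total-count scaling, no filter on low counts, only the groups compared, DESeq2 1.42.0, other class cut-offs and each section left out. The 10 genes were all named; other genes were those called with the largest or smallest change among those of at least 10 CPM in each list, and the genes nearest in level over sections. Members and lists were chosen with earlier results of these data known. The fits of section sums and of portal classes were tested on simulated counts, and the other steps were not. Counting error alone is covered by the depth given. 1 gene among those nearest in level is not reported here.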

Additional observations from a re-analysis of the deposited data

Results flagged for a closer look

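Trib3 in section A of 48 h stood apart from the other 3 sections of its time, at 10.0 CPM against 5.11, 5.14 and 5.92 CPM, with a gap of 0.834 of the range, just past the limit for 4 values (Dixon's test). Chance flags about 1 in 20 such groups, and 10 genes were examined.

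The portal-rich against portal-poor difference changed from 0 h by a test of the change itself in 9 cases. At 24 h these were Trib3 (-1.347 on the log2 scale), Atf5 (0.6263) and Herpud1 (0.6287). At 36 h they were Trib3 (-1.174), Hspa5 (-0.5119) and Herpud1 (0.3758), the first 2 of which were not called without section A and the last not without section B or by total counts. At 48 h they were Chac1 (1.677), Atf5 (0.8357) and Herpud1 (0.9172). Hepatocyte and phagocyte markers differed between the same classes of spots, and their part was not tested.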

How the results depend on the processing

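Of 427 alternative values of single genes, apart from those with a section left out, 349 kept their direction and side of the threshold, 32 passed it newly, 34 no longer passed it and 12 changed direction, all 12 under total-count scaling. These were Atf5 (0.19), Trib3 (0.47), Herpud1 (0.25) and Xbp1 (0.34) at 48 h against 0 h, Atf4 (-0.19), Hspa5 (-0.15) and Xbp1 (-0.093) between portal classes at 48 h, Atf4 (0.11) and Xbp1 (0.10) in adjoining spots and Atf4 (0.35), Asns (0.017) and Hspa5 (0.071) in hepatocyte-low spots at 48 h. The 427 values do not cover every gene in every comparison, and some directions outside them turned too. By total counts the change of gradient turned for Atf4 at 48 h (0.076 to -0.31) and Atf5 at 36 h (0.21 to -0.05). It also turned for Asns at 36 h (0.10 to -0.16) and 48 h (0.19 to -0.21) and Chac1 at 24 h (0.14 to -0.13). At 24 h and 48 h it turned below 0 for Hspa5 (to -0.19 and -0.34) and Xbp1 (to -0.08 and -0.28). Turns in other comparisons included Trib3 between portal classes at 48 h (0.12 to -0.30) and Atf4 at 48 h against 36 h (-0.02 to 0.06), and not every such turn is listed. The number of members called moved to 5 by total counts and to 4 with only 2 groups for 48 h against 0 h. For 36 h against 24 h it moved to 0 with only 2 groups. For 48 h against 36 h it moved from 0 to 1 by total counts, 1 without the low-count filter and 2 with DESeq2. Between portal classes it became 4 at 0 h with the highest and lowest 20% of spots and 7 by total counts at 36 h, and for the change of gradient by total counts 6 at 36 h and 7 at 48 h. In adjoining spots it became 1 by total counts at 24 h and 3 with the 5th percentile at 48 h. Apart from the scaling itself, the cause was not tested.

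Leaving out each section gave 5 to 7 members called at 24 h, 3 to 5 at 36 h and 2 to 4 at 48 h, each against 0 h. From 24 h to 36 h it gave 0 to 6, and from 36 h to 48 h it gave 0 to 3. Between portal classes it gave 0 to 5, 5 to 9, 2 to 5 and 6 to 7 at 0, 24, 36 and 48 h, and for the change of gradient 3 to 5, 2 to 4 and 3 to 4. At 48 h it gave 4 to 6 in adjoining spots and 8 to 9 in hepatocyte-low spots. For these classes section A was the only section at 24 h and could not be left out, so no range is given for that time. Direction changed for Atf5 at 24 h (-0.012 to 0.25), Hspa5 at 36 h (-0.11 to 0.79), Trib3 at 48 h (-0.33 to 0.15) and Hspa5 between portal classes at 36 h (-0.58 to 0.039). A lone section left at a time was assumed to vary like the others.

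Section letters are shared between injured times. The deviations of same-lettered sections correlated at 0.289 (24 h and 36 h), -0.167 (24 h and 48 h) and -0.0927 (36 h and 48 h). No correlation between differently lettered sections was available for reference, so these values cannot decide whether same-lettered sections share more than a letter. With the letter as a replicate block in sections A and B, 0 members were called from 24 h to 36 h and 0 from 36 h to 48 h, as in the same sections without the block, a fit added after seeing the data.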
